A study of Mus musculus with 8 samples.

Results

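The MHC class I antigen presentation pathway was followed through 10 genes, chosen by name: the heavy chains H2-K1 and H2-D1, the light chain B2m, the peptide transporter genes Tap1 and Tap2, the loading factor gene Tapbp, the immunoproteasome subunit genes Psmb8, Psmb9 and Psmb10, and the transactivator gene Nlrc5. All 10 were found among the 23929 gene symbols of the deposited files. Their RNA was read in 4 pro-B cell lines from mouse bone marrow (strain 129SV), each sequenced as 2 libraries, 8 in all. The lines CBE-/- (1) and CBE-/- (2) carry the genotype label IGCR1-/-, a loss of the CTCF-binding elements in the intergenic control region of the immunoglobulin heavy chain locus. The line Eµ-/- lacks the intronic enhancer of that locus, and the WT line is labelled wild type. All lines were grown untreated in serum-containing medium. Eµ-/- and WT are 1 line each, so genotype and line cannot be told apart. Whether replicate libraries stem from separate cultures is not stated, and the spread behind each p-value may therefore be technical.

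Class I molecules display peptides from inside the cell to CD8 T cells. The proteasome cuts proteins into peptides, TAP pumps them into the endoplasmic reticulum, and tapasin holds TAP and an empty heavy chain with β2-microglobulin together until a peptide fits. Interferon-γ raises the whole set and swaps the constitutive catalytic subunits of the proteasome for the immunosubunits. NLRC5 is a transactivator that works at the promoters of class I genes through the SXY module, bound by RFX, CREB/ATF and NF-Y factors. No interferon was among the stated treatments, and the interferon genes Ifng and Ifnb1 were listed at 0 in every library.

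The promoters are shown first because the heavy and light chain genes are the most abundant members and share the spacing of TGACG and ATTGG. The order of the other marked motifs differs between B2m and the heavy chain genes. RefSeq windows (GRCm38.p6, 250 bases before to 50 after the start) were found for 8 of the 10 members, all but Tap2 and Nlrc5. In the windows of H2-K1 (chr17:34000298-34000597, minus strand), H2-D1 (chr17:35262844-35263143, plus strand) and B2m (chr2:122147437-122147736, plus strand), capitals mark AANNGAAA (an interferon regulatory factor core), GGGNN followed by TTNCC (a κB-type site), TGACG (the X2 box of SXY, a CREB/ATF core) and ATTGG (the Y box, an inverted CCAAT), on either strand.
H2-K1: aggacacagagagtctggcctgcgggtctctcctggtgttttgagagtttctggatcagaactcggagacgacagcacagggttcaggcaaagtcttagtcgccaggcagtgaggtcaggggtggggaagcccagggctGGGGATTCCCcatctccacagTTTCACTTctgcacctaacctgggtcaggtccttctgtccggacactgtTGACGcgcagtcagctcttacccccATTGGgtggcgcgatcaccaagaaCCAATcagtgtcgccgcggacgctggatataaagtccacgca
H2-D1: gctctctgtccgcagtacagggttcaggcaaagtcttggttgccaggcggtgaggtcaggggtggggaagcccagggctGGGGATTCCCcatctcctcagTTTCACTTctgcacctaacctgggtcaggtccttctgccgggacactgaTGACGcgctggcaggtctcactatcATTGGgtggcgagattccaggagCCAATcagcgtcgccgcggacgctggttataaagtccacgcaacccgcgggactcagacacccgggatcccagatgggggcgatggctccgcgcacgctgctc
B2m: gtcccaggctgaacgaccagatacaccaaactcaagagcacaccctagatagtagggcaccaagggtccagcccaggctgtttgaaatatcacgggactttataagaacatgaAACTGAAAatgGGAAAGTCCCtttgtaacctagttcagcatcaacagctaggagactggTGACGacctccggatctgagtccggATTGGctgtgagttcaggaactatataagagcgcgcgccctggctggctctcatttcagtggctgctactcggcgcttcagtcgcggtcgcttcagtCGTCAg

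In these sequences TGACG stood exactly 20 bases before ATTGG in all 3 promoters. Over the promoter windows of 27025 genes that spacing occurred in 26, or 0.0962%, whereas TGACG by itself occurred in 21.0% and ATTGG in 37.9%. The κB-type site was in 4.71% of all windows and the interferon regulatory factor core in 24.2%, and among the members both were in these same 3 promoters only. The H2-K1 and H2-D1 windows shared 73.3% of 240 aligned bases. The motifs were chosen with the sequences in view, so the shares are a description.

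Tap1 and Psmb9 are transcribed away from each other from start sites 226 bases apart, so their windows overlap over 275 bases (chr17:34187306-34187580, plus strand). The overlap is printed with the same marks because it lies upstream of both genes, which encode parts of the same pathway.
Tap1 and Psmb9 overlap: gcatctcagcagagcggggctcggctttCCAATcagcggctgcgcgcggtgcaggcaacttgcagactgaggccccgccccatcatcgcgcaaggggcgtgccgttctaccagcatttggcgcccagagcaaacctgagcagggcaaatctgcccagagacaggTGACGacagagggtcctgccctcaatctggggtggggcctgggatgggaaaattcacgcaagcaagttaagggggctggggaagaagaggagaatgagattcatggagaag

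This shared stretch held 1 TGACG and 1 inverted ATTGG, but neither the κB-type letters nor the interferon regulatory factor core.

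Expression was given as FPKM, which divides fragments by transcript length and library size, so levels can be compared between genes. The implied depth was 31.3 to 49.5 M reads per library. Of 15 pro-B markers 14 averaged 1 FPKM or more, Kit was listed at 0 throughout, and Rag1 and Rag2 were at 1.93 to 13.8 FPKM in the mutant libraries and at 0.0427 FPKM or less in WT. Markers of other cells summed to at most 8.85 FPKM (myeloid), 0.574 (dendritic), 2.46 (NK), 0.268 (erythroid) and 0.0382 (stromal). The T cell list summed to 17.0 to 82.2 FPKM through Lck, with Cd3e, Cd4 and Cd8a listed at 0.

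The class I pathway was strongly transcribed in every line, and no member passed a test for a difference among the lines. B2m was the most abundant member, at rank 27 of the 10479 genes tested (those with 1 FPKM or more in at least 2 libraries), and H2-D1 and H2-K1 ranked 116 and 130. Psmb8, Psmb9, Tap1, Psmb10, Tap2, Tapbp and Nlrc5 followed, the last of these at rank 4406. All 10 members passed the filter. A test for any difference among the 4 lines (limma F-test on log2(FPKM + 1), Benjamini-Hochberg adjustment over all genes tested) called 0 of the 10 members, where 27.6% of all genes were called at an adjusted p under 0.05. At an unadjusted p under 0.05 there were 2, Psmb9 (adjusted p = 0.0919) and Tap2 (adjusted p = 0.104). With the replicate number as a block, taken as a pairing of the libraries, Psmb9 passed (adjusted p = 0.0487). The highest line mean exceeded the lowest by 1.14 times for B2m and by up to 1.39 times for Psmb9, with the other members between. The SD of the 4 line means was under the median of all genes (0.19 on the log2 scale) for the 9 members other than Psmb9.

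**Figure D1:**
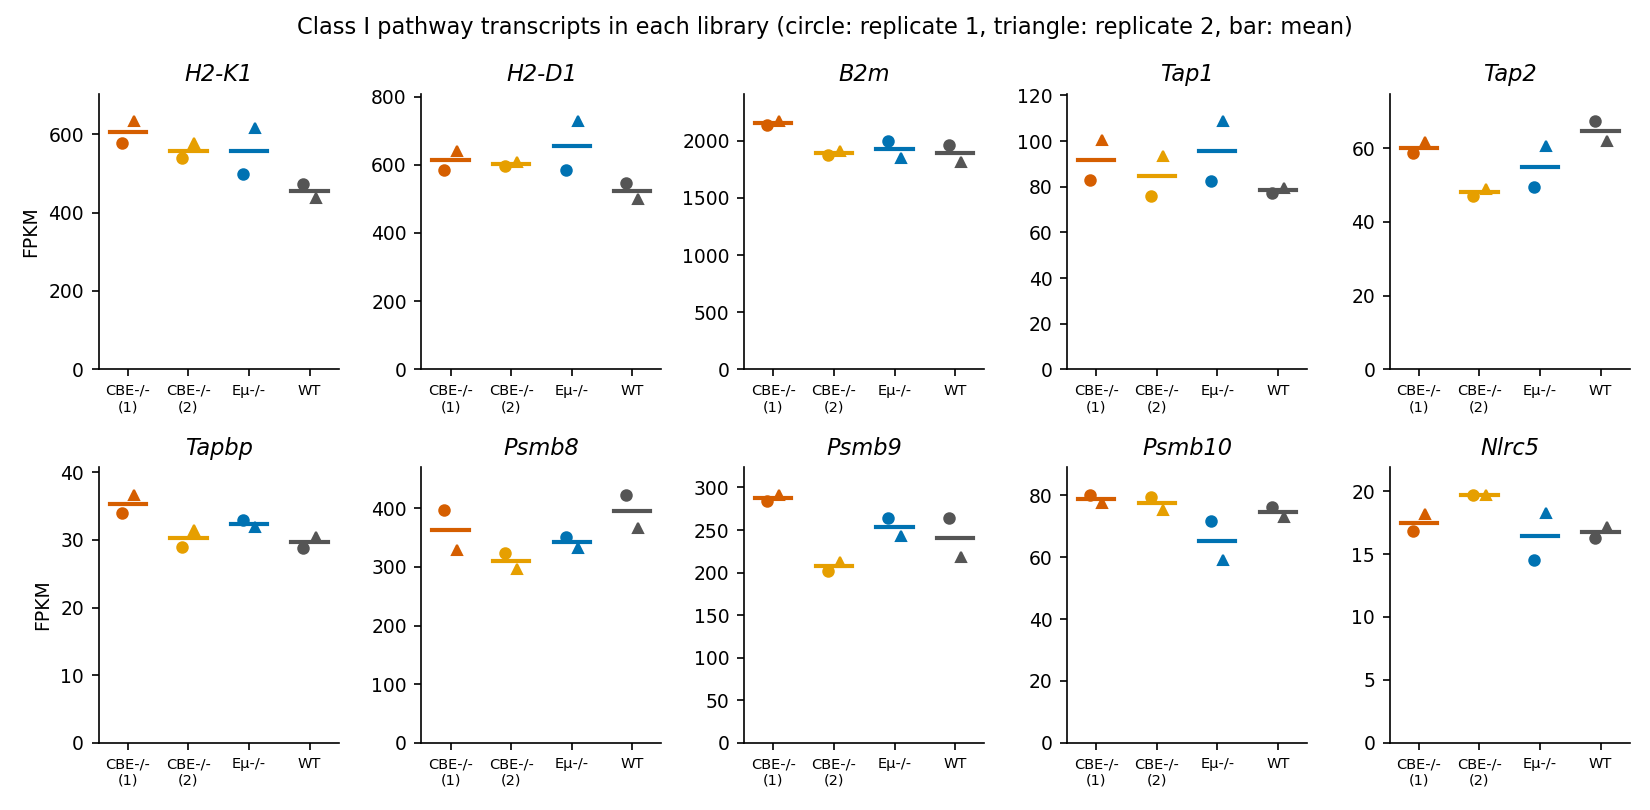
FPKM of the 10 members (linear axes from 0) in each library of CBE-/- (1), CBE-/- (2), Eµ-/- and WT; circles are replicate 1, triangles replicate 2 and bars the mean of 2. H2-K1 and H2-D1 lie above both WT libraries in 6 of 6 mutant libraries, Tap2 lies below both in 6 of 6, and no other member has all 6 mutant libraries on one side of WT. The share of all genes with such a gap was not counted. For the CBE libraries alone, 25.0% of all genes lay above and 18.8% below both WT libraries.

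The heavy chains are described first. H2-K1, a classical class I heavy chain, had 577 and 634 FPKM in CBE-/- (1), 539 and 578 in CBE-/- (2), 498 and 616 in Eµ-/-, and 474 and 438 FPKM in WT. Every mutant library was above both WT libraries, and the 3 mutant lines overlapped one another. The log2 difference was 0.35 ± 0.12 (SE) for the CBE lines against WT (adjusted p = 0.0806), 0.41 for CBE-/- (1), 0.29 for CBE-/- (2) and 0.28 for Eµ-/-, none past the threshold. It passed under the replicate block for the CBE lines jointly (adjusted p = 0.0371) and for CBE-/- (1) (adjusted p = 0.0387).

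H2-D1, the other classical heavy chain, had 584 and 641 FPKM in CBE-/- (1), 597 and 608 in CBE-/- (2), 584 and 728 in Eµ-/-, and 547 and 501 FPKM in WT. The mutant libraries again all lay above the WT pair and overlapped one another. The largest log2 difference from WT was 0.32 ± 0.14 (SE) in Eµ-/- (adjusted p = 0.149), where replicate 2 was well above replicate 1. Without Eµ-/- replicate 1 the differences of that line from WT were 0.48 for H2-D1 and 0.43 for H2-K1. These rest on replicate 2 alone, the higher library. Replicate 1, at 584 FPKM for H2-D1 and 498 for H2-K1, was nearer to WT.

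Class I heavy chain genes resemble each other closely, so reads can be split between them. Of the 75-base windows of the H2-D1 transcript (GENCODE vM21), 6.90% also occurred exactly in transcripts of other genes, against 1.55% for H2-K1 and 0% for B2m, the TAP genes and the immunosubunits. Summing all 18 H2-K, H2-D, H2-Q and H2-T symbols removes that split within the family. The sum was 1788 and 1978 FPKM in CBE-/- (1), 1903 and 2033 in CBE-/- (2), 1795 and 2268 in Eµ-/-, and 1586 and 1444 FPKM in WT. All 6 mutant libraries were above WT, but no comparison passed, with log2 differences of 0.35 for the CBE lines (adjusted p = 0.121) and 0.41 for Eµ-/- (adjusted p = 0.106). H2-K1 and H2-D1 together made 59.7 and 58.3% of that sum in CBE-/- (2) and 60.3 and 59.2% in Eµ-/-. In CBE-/- (1) the share was 65.0 and 64.5%, within the range of WT at 64.4 and 65.0%.

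B2m encodes β2-microglobulin, the light chain that pairs with class I heavy chains. It had 2137 and 2173 FPKM in CBE-/- (1), 1877 and 1909 in CBE-/- (2), 2000 and 1851 in Eµ-/-, and 1968 and 1815 FPKM in WT. CBE-/- (1) was above the other lines, which overlapped one another. The log2 difference of CBE-/- (1) from WT was 0.19 ± 0.12 (SE; adjusted p = 0.332), and under quantile normalization it was 0.37 (adjusted p = 0.0225). The ratio of B2m to the heavy chain sum was 1.20 and 1.10 in CBE-/- (1), 0.986 and 0.939 in CBE-/- (2), 1.11 and 0.816 in Eµ-/-, and 1.24 and 1.26 in WT. It was lower in each of the 6 mutant libraries than in either WT library; the ratio was chosen after its values were seen and was not tested.

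TAP is a pair of proteins, and its 2 genes did not go together. Tap2 had 58.8 and 61.6 FPKM in CBE-/- (1), 46.9 and 49.1 in CBE-/- (2), 49.5 and 60.5 in Eµ-/-, and 67.4 and 62.1 FPKM in WT. CBE-/- (2) was lowest, then Eµ-/-, CBE-/- (1) and WT, and no neighbours in that order differed past the threshold. Tap2 in CBE-/- (2) was the 1 member call among all pairwise comparisons, lower than in WT by a log2 difference of -0.42 ± 0.12 (SE; adjusted p = 0.0496), where 18.7% of all genes were called and 8.19% of all genes were called lower. The call sat at the threshold: it was lost under 7 of the other settings and when any library of WT, CBE-/- (1) or CBE-/- (2) was left out (adjusted p = 0.0664 to 0.266), and under the replicate block its adjusted p was 0.0285.

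Tap1 had 82.8 and 101 FPKM in CBE-/- (1), 76.0 and 93.4 in CBE-/- (2), 82.6 and 109 in Eµ-/-, and 77.4 and 79.4 FPKM in WT. Replicate 2 was above replicate 1 in each line, and the lines overlapped apart from CBE-/- (1) and Eµ-/- against WT. Its largest log2 difference from WT was 0.27 ± 0.17 (SE) in Eµ-/- (adjusted p = 0.309). The ratio of Tap1 to Tap2 within a library was 1.41 and 1.63 in CBE-/- (1), 1.62 and 1.90 in CBE-/- (2), 1.67 and 1.80 in Eµ-/-, and 1.15 and 1.28 in WT. No mutant library fell to the WT range of this ratio, which was noticed in the values and is given without a test.

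Tapbp encodes tapasin, the bridge between TAP and the heavy chain. It had 34.0 and 36.7 FPKM in CBE-/- (1), 29.0 and 31.5 in CBE-/- (2), 32.9 and 32.0 in Eµ-/-, and 28.9 and 30.4 FPKM in WT. CBE-/- (1) was highest, and CBE-/- (2) overlapped WT. The log2 difference of CBE-/- (1) from WT was 0.25 ± 0.09 (SE; adjusted p = 0.113).

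The immunoproteasome genes had their lowest or highest levels in different lines. Psmb8 (β5i, LMP7) had 398 and 329 FPKM in CBE-/- (1), 324 and 296 in CBE-/- (2), 352 and 332 in Eµ-/-, and 423 and 367 FPKM in WT. The line means ran from CBE-/- (2) through Eµ-/- and CBE-/- (1) to WT, with CBE-/- (1) overlapping all but CBE-/- (2). CBE-/- (2) differed from WT by -0.35 ± 0.13 on the log2 scale (SE; adjusted p = 0.130), which passed under the replicate block (adjusted p = 0.0233), as did both CBE lines jointly (-0.24, adjusted p = 0.0463).

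Psmb9 (β1i, LMP2) showed the widest spread, with 284 and 292 FPKM in CBE-/- (1), 202 and 213 in CBE-/- (2), 264 and 243 in Eµ-/-, and 264 and 218 FPKM in WT. The CBE lines, which share a genotype label, stood at opposite ends, and Eµ-/- and WT lay between them and overlapped. CBE-/- (2) was below CBE-/- (1) by a log2 difference of -0.47 ± 0.12 (SE; adjusted p = 0.0568), just outside the threshold, and inside it under the replicate block (adjusted p = 0.0311) and TPM scaling (adjusted p = 0.0379). In that comparison 0 of the 10 members and 10.2% of all genes were called, and 3 members had an unadjusted p under 0.05.

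Psmb10 (β2i, MECL-1) had 80.3 and 77.4 FPKM in CBE-/- (1), 79.6 and 75.4 in CBE-/- (2), 71.7 and 59.0 in Eµ-/-, and 76.4 and 73.1 FPKM in WT. The Eµ-/- libraries were the lowest, with replicate 2 far below replicate 1. CBE-/- (2) overlapped CBE-/- (1) and WT, and CBE-/- (1) lay just above WT. The log2 difference of Eµ-/- from WT was -0.20 ± 0.11 (SE, adjusted p = 0.258), and without Eµ-/- replicate 1 it was -0.34. The latter rests on replicate 2 alone, and replicate 1, at 71.7 FPKM, was nearer to WT.

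Each immunosubunit replaces a constitutive catalytic subunit, so the pairs were read as ratios within a library. The Psmb8 to Psmb5 ratio was 2.77 and 2.64 in CBE-/- (1), 2.02 and 1.97 in CBE-/- (2), 2.46 and 2.69 in Eµ-/-, and 2.75 and 2.49 in WT. The Psmb9 to Psmb6 ratio was 1.69 and 1.74 in CBE-/- (1), 1.01 and 1.15 in CBE-/- (2), 1.59 and 1.73 in Eµ-/-, and 1.53 and 1.33 in WT. CBE-/- (2) was below every other library in both ratios. Transcripts of the immunosubunits β5i and β1i thus exceeded those of their constitutive partners in all 8 libraries, whereas Psmb10 was at 0.339 to 0.446 of Psmb7. The ratios have no test of their own.

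**Figure D2:**
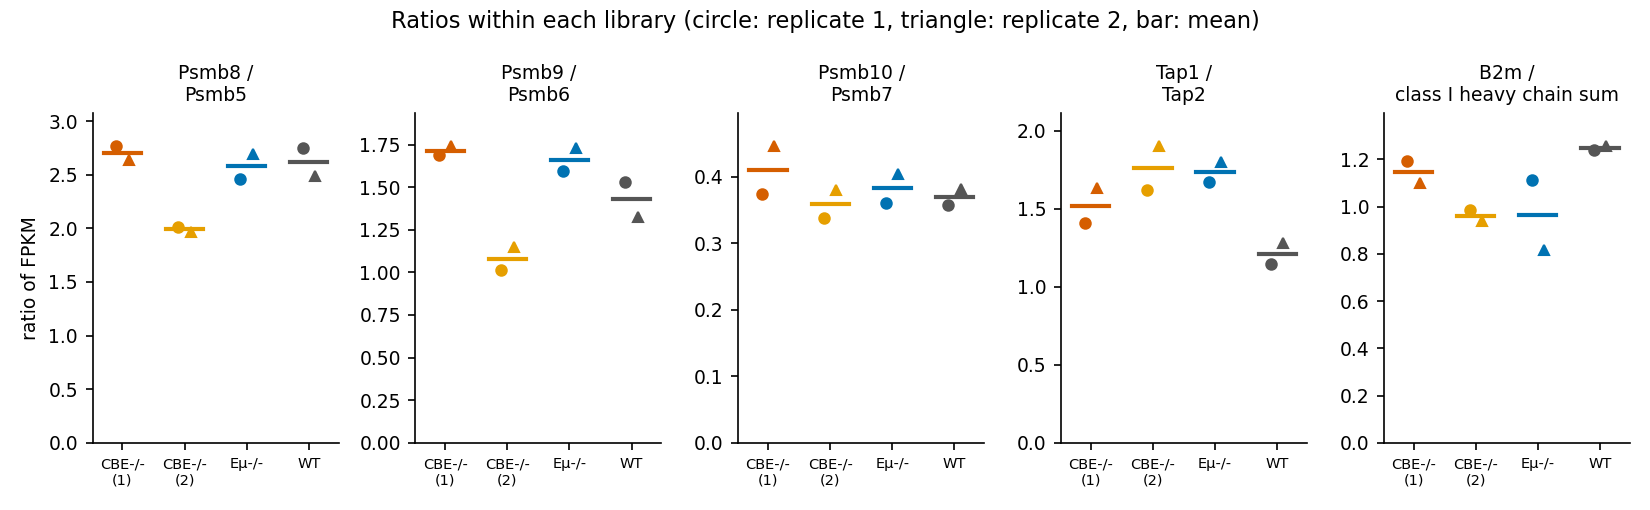
FPKM ratios within each library (linear axes from 0) for the immunosubunit genes over their constitutive partners, Tap1 over Tap2, and B2m over the sum of 18 class I heavy chain symbols; circles are replicate 1, triangles replicate 2 and bars the mean of 2. CBE-/- (2) is lowest in both left panels (1.97 and 2.02 for Psmb8, 1.01 and 1.15 for Psmb9), and WT is lowest for Tap1 over Tap2 and highest for B2m over heavy chains.

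Nlrc5 had 16.8 and 18.2 FPKM in CBE-/- (1), 19.7 and 19.7 in CBE-/- (2), 14.5 and 18.3 in Eµ-/-, and 16.3 and 17.2 FPKM in WT. CBE-/- (2) was above all the others, which overlapped one another. Its log2 difference from WT was 0.23 ± 0.12 (SE; adjusted p = 0.264). Among the members, CBE-/- (2) thus had the highest level of the transactivator gene together with the lowest of Tap2, Psmb8 and Psmb9. Across the 8 libraries the correlation of Nlrc5 with H2-K1 was 0.49 and with Psmb8 it was -0.65, on libraries that share lines and are therefore not independent.

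Against WT the members were read beside the whole table. In the CBE lines jointly 0 of the 10 members and 22.3% of all genes were called, and the median log2 difference was 0.12 over the members and 0.03 over all genes. For CBE-/- (1), 0 members and 19.4% of genes were called, with medians of 0.20 and 0.02. CBE-/- (2) had the Tap2 call and medians of 0.04 and 0.04. Eµ-/- had 0 member calls, 21.8% of genes called, and medians of 0.05 and 0.01. Unadjusted p-values under 0.05 numbered 2 in each of the CBE comparisons with WT and 0 in the Eµ-/- one. Of all genes, 10.9% were called higher and 8.54% lower in CBE-/- (1), 10.5 and 8.19% in CBE-/- (2), 11.3 and 10.4% in Eµ-/-, and 12.5 and 9.78% in the CBE lines jointly. Libraries of CBE-/- (1) did not overlap those of WT for 7 members on the higher side and 1 on the lower, where 34.1 and 28.6% of all genes did so. For CBE-/- (2) these counts were 3 and 3 (40.2 and 30.4% of all genes), for Eµ-/- 4 and 3 (32.6 and 29.9%), and for the CBE lines jointly 2 and 1 (25.0 and 18.8%). With 2 libraries a line such gaps are common over all genes. How many of all genes have all 6 mutant libraries on one side of WT was not counted. These comparisons share the WT libraries, and the shares of all genes called rest on single libraries: without WT replicate 2 the calls numbered 902 in place of 2339 for the CBE lines jointly, 784 in place of 2033 for CBE-/- (1) and 784 in place of 2284 for Eµ-/-. For CBE-/- (2) they numbered 837 in place of 1960 without CBE-/- (2) replicate 2.

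The precision limits what can be said of members that did not pass. Over the 10 members and 7 pairwise comparisons the 95% interval of the log2 difference reached -0.76 at the lowest (Psmb9, CBE-/- (2) against CBE-/- (1)) and 0.73 at the highest (H2-K1, CBE-/- (1) against WT). A change of 2-fold or more was outside all 70 intervals, and smaller ones, up to about 1.69-fold down or 1.66-fold up at these extremes, were not. Eµ-/- against CBE-/- (1) and against CBE-/- (2) gave 0 member calls each (10.0 and 13.2% of all genes called). Each had 1 member at an unadjusted p under 0.05. Against CBE-/- (1) it was Psmb10, lower in Eµ-/- by a log2 difference of -0.27. Against CBE-/- (2) it was Psmb9, higher in Eµ-/- by 0.29, and Psmb10 was at -0.25 there.

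**Figure D3:**
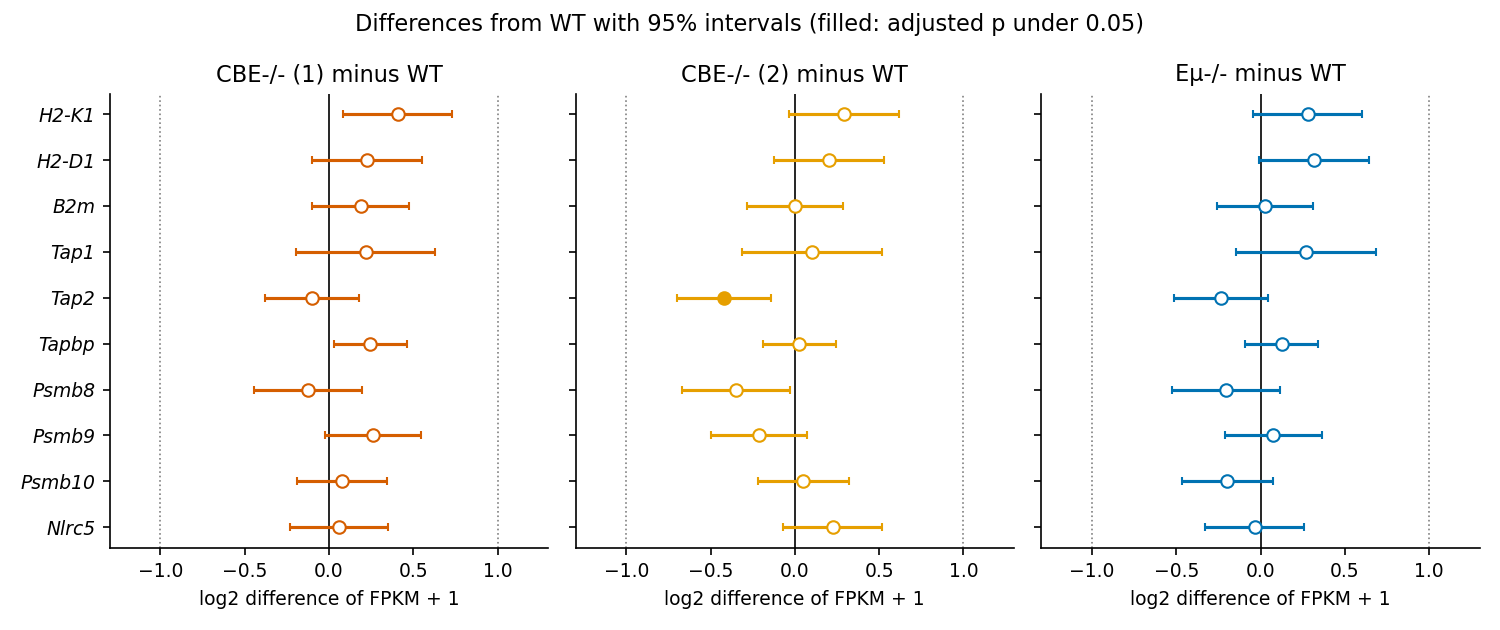
Log2 differences of FPKM + 1 from WT for the 10 members in CBE-/- (1), CBE-/- (2) and Eµ-/-; bars are 95% intervals from the shared fit, the filled point has an adjusted p under 0.05 and dotted lines mark a change of 2-fold. Tap2 in CBE-/- (2) (-0.42) is the filled point, and every interval stays inside the dotted lines.

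Members did not vary as one block. Of the 45 member pairs 30 had a positive and 15 a negative correlation over the 8 libraries, from -0.65 to 0.87 with a median of 0.16, which describes libraries that share lines. Tap1 and Nlrc5 were higher in replicate 2 than in replicate 1 in all 4 lines, and Psmb8 and Psmb10 were lower in all 4. Over all genes, a difference between the replicate numbers was called for 0 of 10479. The 5 genes outside the lists whose log2 levels followed the mean member profile most closely (of 1409 genes with an SD of 0.5 or more) were Map3k8, a kinase gene (r = 0.94), Csf2rb2, a cytokine receptor chain gene (r = 0.94), Rnf130 (r = 0.92), Bin2 (r = 0.92) and Bscl2 (r = 0.91), over 8 libraries. Map3k8 had 6.80 and 8.52 FPKM in CBE-/- (1), 2.02 and 2.76 in CBE-/- (2), 2.85 and 4.85 in Eµ-/-, and 1.86 and 1.56 FPKM in WT. All 5 had their highest line mean in CBE-/- (1), a likeness that follows from picking them by that profile. The profile stands for some members only. Its correlation was 0.05 with Psmb8, 0.05 with Psmb10 and 0.07 with Nlrc5, and 0.40 (Tap2) to 0.81 (B2m) with the others.

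Outside the 10 members, some non-classical class I genes and other partners of B2m were called. Of 25 such genes 18 were measured and 7 were called by the F-test, where 27.6% of all genes were called. These counts and the medians below treat each symbol as a separate gene, which not all are. In mm9 H2-Q7 overlaps H2-Q9, H2-Q6 overlaps H2-Q8 and H2-T9 overlaps H2-T22, and Cd1d1 and Cd1d2 share sequence. Set against WT, the CBE lines jointly had 5 of them higher and 1 lower (12.5 and 9.78% of all genes), CBE-/- (1) had 3 and 2 (10.9 and 8.54%), CBE-/- (2) had 6 and 1 (10.5 and 8.19%), and Eµ-/- had 6 and 1 (11.3 and 10.4%). The median log2 difference of the 18 from WT was 0.19, 0.15, 0.34 and 0.28 in those comparisons, beside 0.03, 0.02, 0.04 and 0.01 over all genes.

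H2-Q7, a Qa-2 gene, had 106 and 150 FPKM in CBE-/- (1), 152 and 170 in CBE-/- (2), 132 and 137 in Eµ-/-, and 63.2 and 49.5 FPKM in WT. All 6 mutant libraries stood well above WT, CBE-/- (2) was highest, and Eµ-/- lay within the range of CBE-/- (1), with log2 differences of 1.16, 1.51 and 1.25 (adjusted p = 0.00696, 0.00208 and 0.0051). H2-Q9, a Qa-2 symbol whose mm9 coordinates overlap those of H2-Q7 and which is therefore not separate evidence, had log2 differences of 0.93, 0.80 and 1.37 in the same lines (adjusted p = 0.00592, 0.011 and 0.00112), and H2-Q10 of 0.76, 0.63 and 0.47 (adjusted p = 0.0061, 0.0134 and 0.036). The F-test calls of H2-Q7 and H2-Q9 held without any 1 library, and that of H2-Q10 needed both WT libraries (adjusted p = 0.0777 without replicate 1 and 0.121 without replicate 2). Some pairwise calls also rested on single libraries: without WT replicate 2 the adjusted p for CBE-/- (1) was 0.0618 for H2-Q7 and 0.0598 for H2-Q9, and that of H2-Q9 in CBE-/- (2) was 0.0609 to 0.0926 without either library of WT or of CBE-/- (2). The call of H2-Q10 was lost in CBE-/- (1) without WT replicate 2 (adjusted p = 0.0660) and in CBE-/- (2) without either library of WT or of CBE-/- (2) (adjusted p = 0.0655 to 0.118). In Eµ-/- it was lost without any of these 4 or Eµ-/- replicate 2 (adjusted p = 0.0730 to 0.202).

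Qa-2 genes are near-copies, with 21.7% of the H2-Q7 windows found in other transcripts, so single values are uncertain. H2-Q6 and H2-Q8 also overlap each other in mm9. The sum of H2-Q6 to H2-Q9 was 291 and 332 FPKM in CBE-/- (1), 401 and 439 in CBE-/- (2), 373 and 482 in Eµ-/-, and 246 and 220 FPKM in WT. H2-Q6 had 85.2 and 95.6 FPKM in CBE-/- (1), below the 127 and 112 FPKM of WT, without passing the test. H2-Q8 was at 3.66 and 1.24 FPKM in CBE-/- (1), 12.6 and 20.7 in CBE-/- (2), 10.1 and 11.9 in Eµ-/-, and 6.81 and 13.0 FPKM in WT. The log2 difference of H2-Q8 from WT in that line was -1.69 (adjusted p = 0.0358), lost without either WT library or CBE-/- (1) replicate 2 (adjusted p = 0.0527 to 0.207). In the sum every mutant library was above WT, and CBE-/- (1) was nearest to it; the sum was added after seeing the values and has no test.

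CD1d presents lipids to NKT cells. Cd1d1 had 6.48 and 6.37 FPKM in CBE-/- (1), 10.1 and 11.1 in CBE-/- (2), 9.96 and 10.6 in Eµ-/-, and 5.14 and 4.80 FPKM in WT. It was higher than WT in CBE-/- (2) by 0.96 and in Eµ-/- by 0.92 on the log2 scale (adjusted p = 0.000695 and 0.000959), and by 0.32 in CBE-/- (1) without passing (adjusted p = 0.0636). Cd1d2 gave 0.76 and 1.06 in the same pair of lines (adjusted p = 0.00151 and 0.000404), but 30.9% of its windows occur in Cd1d1, so the genes are not separate evidence. Their F-test calls held with any library left out.

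Hfe, a class I-like gene of iron regulation, went the other way. It had 1.02 and 0.816 FPKM in CBE-/- (1), 0.293 and 0.301 in CBE-/- (2), 0.641 and 0.558 in Eµ-/-, and 2.87 and 2.69 FPKM in WT. No mutant line overlapped WT or another mutant line. Outside WT only CBE-/- (1) replicate 1 reached 1 FPKM, so Hfe passed the filter through WT, where it is high. The log2 differences from WT, -0.98, -1.54 and -1.24, are therefore given as a description, on a scale that understates changes at such low levels. Hfe is among the F-test calls counted for these partners and among their lower calls in each comparison with WT.

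**Figure D4:**
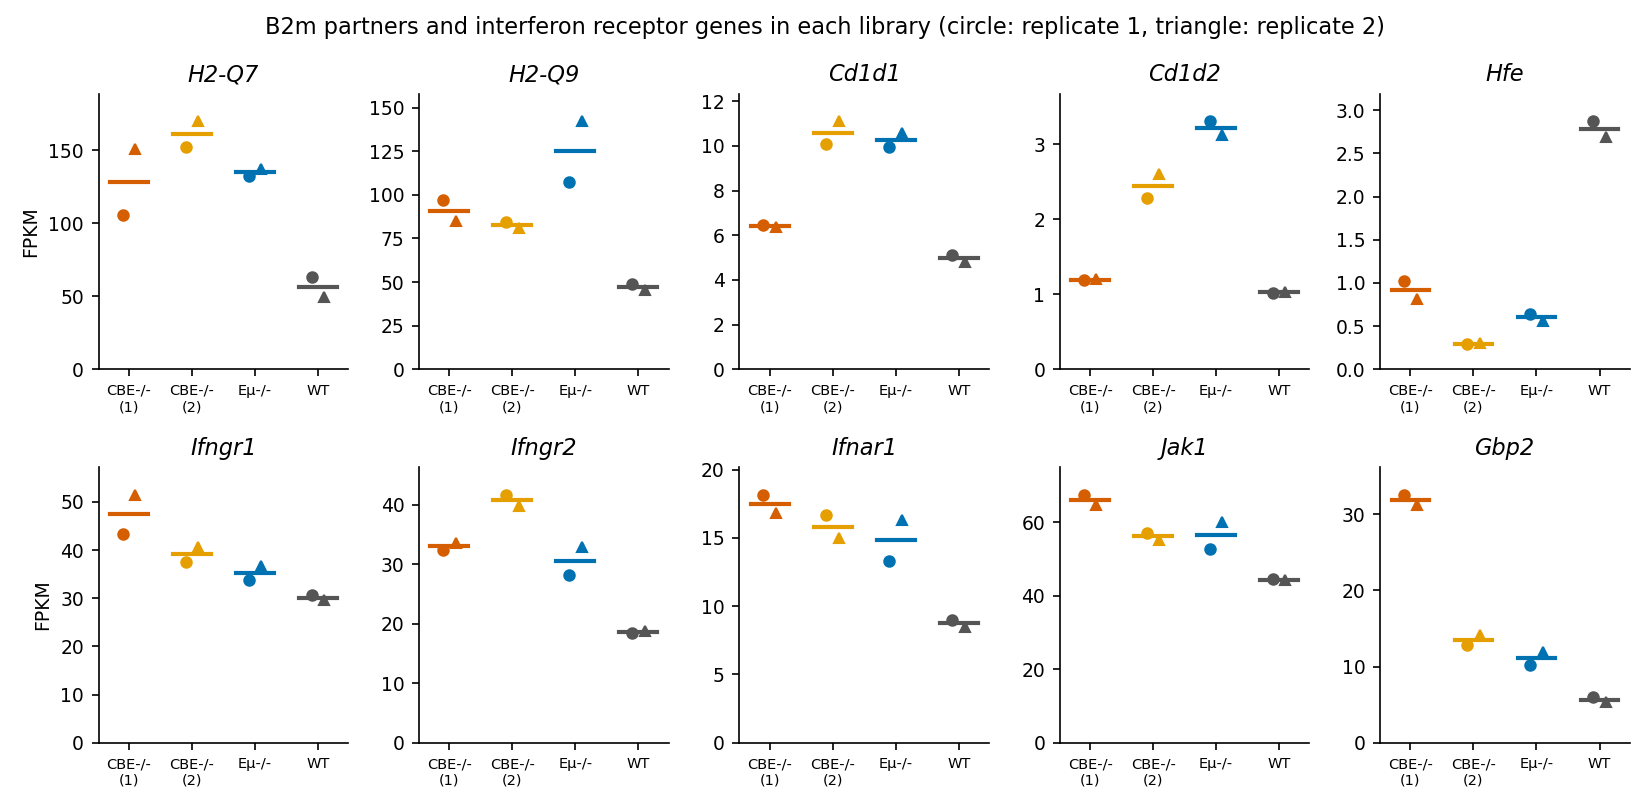
FPKM of partners of B2m, interferon receptor genes, Jak1 and Gbp2 (linear axes from 0) in each library of CBE-/- (1), CBE-/- (2), Eµ-/- and WT; circles are replicate 1, triangles replicate 2 and bars the mean of 2. H2-Q7 has 106 to 170 FPKM in the mutant lines and 63.2 or less in WT, and Hfe has 1.02 or less in the mutant lines and 2.69 or more in WT.

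Few other genes of the surrounding machinery were called. Of 20 genes of the constitutive 20S core, its assembly and its activators 19 were measured and 0 were called by the F-test (4 under the replicate block). Of all genes 27.6% were called by that test, and 4746 of 10479 under the block. The single call against WT was Psme4, the gene of an activator, lower in the CBE lines jointly by -0.38 on the log2 scale (adjusted p = 0.0438), a call lost without any library of WT or CBE-/- (2) or without CBE-/- (1) replicate 2 (adjusted p = 0.0642 to 0.266). In Eµ-/- 18 of the 19 had a negative log2 difference from WT, with a median of -0.23 beside 0.01 for all genes. There were 0 calls (2 under the block, where 3563 of 10479 genes were called against WT). All but Psme4 were lower in replicate 2 of Eµ-/- than in replicate 1, so the shift leans on replicate 2. Psma5, for example, had 63.3 and 63.7 FPKM in WT and 63.3 and 40.8 in Eµ-/-. Psme1, a gene of the interferon-inducible PA28 activator, had 151 and 107 FPKM in that line, 212 and 205 in CBE-/- (2), 197 and 194 in CBE-/- (1), and 176 and 166 FPKM in WT. It was lower in Eµ-/- than in CBE-/- (2) by -0.71 on the log2 scale (adjusted p = 0.0334), and this call was lost without any library of WT or of a CBE line (adjusted p = 0.0521 to 0.192). Psme2, its partner, had a difference of -0.48 there (adjusted p = 0.147). Psmb5, Psmb6 and Psmb7 did not pass in any comparison.

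Among 12 measured chaperone and peptide-trimming genes of 14, the F-test called 2 (4 under the block), where 27.6% of all genes were called (4746 of 10479 under the block). Ganab, of glucosidase II, was lower than WT by -0.42, -0.44 and -0.37 on the log2 scale in CBE-/- (1), CBE-/- (2) and Eµ-/- (adjusted p = 0.0268, 0.0235 and 0.0396), and Npepps, a cytosolic aminopeptidase gene, was higher by 0.41 in CBE-/- (2) (adjusted p = 0.0306) and 0.47 in Eµ-/- (adjusted p = 0.0180). The F-test call of Ganab was lost without either library of WT (adjusted p = 0.199 and 0.264) or of CBE-/- (2) (adjusted p = 0.133 and 0.116), and that of Npepps without any of these 4 (adjusted p = 0.112 to 0.193) or without Eµ-/- replicate 2 (adjusted p = 0.0537). Each pairwise call of these genes was also lost without either WT library (adjusted p = 0.116 to 0.212), and that of Npepps in CBE-/- (2) without either CBE-/- (2) library (adjusted p = 0.143 and 0.208) or under quantile normalization (adjusted p = 0.0602). The F-test call of Npepps was lost under median-of-ratios scaling (adjusted p = 0.0527) and quantile normalization (adjusted p = 0.0740), and that of Ganab under TPM scaling (adjusted p = 0.0563) and the filter on a mean of 5 FPKM (adjusted p = 0.0588). Calr, the gene of the chaperone calreticulin, was lower in replicate 2 of each line, at 326 and 160 FPKM in CBE-/- (1), 239 and 156 in CBE-/- (2), 241 and 86.8 in Eµ-/-, and 274 and 197 FPKM in WT. Erap1, which trims peptides in the endoplasmic reticulum, lay at 32.1 to 39.7 FPKM over all libraries, with no call.

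Upstream, the receptor genes Ifngr2 and Ifnar1 were higher than WT in each mutant line. Ifngr1 passed in CBE-/- (1) (0.64, adjusted p = 0.00916) but not in CBE-/- (2) (0.37, adjusted p = 0.0668) or Eµ-/- (0.22, adjusted p = 0.208), and Ifnar2 was not called (F-test adjusted p = 0.682). Of 27 regulators 24 were measured and 6 were called by the F-test (10 under the block), a share near the 27.6% of all genes (4746 of 10479 under the block). Set against WT, the CBE lines jointly had 5 of them higher and 0 lower, CBE-/- (1) had 4 and 1, CBE-/- (2) had 2 and 0, and Eµ-/- had 4 and 0, beside the shares of all genes given with the partners of B2m; under the block these counts were 5 and 3, 6 and 2, 5 and 1, and 5 and 3. Ifngr2, a chain of the interferon-γ receptor, had 32.4 and 33.6 FPKM in CBE-/- (1), 41.7 and 39.8 in CBE-/- (2), 28.3 and 32.9 in Eµ-/-, and 18.4 and 18.9 FPKM in WT. Its log2 differences from WT were 0.79, 1.09 and 0.68 (adjusted p = 0.00228, 0.000468 and 0.00434), and the F-test call held with any library left out.

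Ifnar1, of the type I interferon receptor, had 18.2 and 16.8 FPKM in CBE-/- (1), 16.7 and 15.0 in CBE-/- (2), 13.3 and 16.3 in Eµ-/-, and 8.99 and 8.50 FPKM in WT. All mutant libraries were above WT, with log2 differences of 0.92, 0.79 and 0.69 (adjusted p = 0.00279, 0.00535 and 0.00949). CBE-/- (1) was highest, just above CBE-/- (2), and CBE-/- (2) and Eµ-/- overlapped. Its F-test call needed both WT libraries (adjusted p = 0.0512 without replicate 1 and 0.0682 without replicate 2), and the pairwise calls were lost in CBE-/- (2) without WT replicate 2 or CBE-/- (2) replicate 1 and in Eµ-/- without either WT library (adjusted p = 0.0548 to 0.0822).

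Ifngr1, Jak1, Irf2 and Nfyb were also called by the F-test, each losing the call without 4 to 6 of the 8 libraries taken singly, both WT libraries and both CBE-/- (2) libraries among them (adjusted p up to 0.160). Nfyb, a subunit gene of the Y-box factor NF-Y, had 27.2 and 24.8 FPKM in CBE-/- (1), 22.6 and 23.4 in CBE-/- (2), 28.6 and 32.6 in Eµ-/-, and 20.88 and 22.001 FPKM in WT. Eµ-/- was highest and every mutant library was above WT. The log2 difference of Eµ-/- from WT was 0.49 (adjusted p = 0.0170), lost without either WT library or Eµ-/- replicate 2 (adjusted p = 0.0539 to 0.128). Irf1, which acts at class I promoters, had 24.2 and 25.9 FPKM in CBE-/- (1), 21.8 and 23.6 in CBE-/- (2), 19.1 and 34.9 in Eµ-/-, and 16.7 and 17.4 FPKM in WT. All mutant libraries were above WT, but the F-test gave an adjusted p of 0.285, with a wide gap between the Eµ-/- replicates. It passed without Eµ-/- replicate 1 (adjusted p = 0.00496) or replicate 2 (adjusted p = 0.0210). Rfx5, a subunit of the X-box factor RFX, lay at 5.57 to 8.74 FPKM with no call, and Ciita, the class II relative of Nlrc5, at 0.0744 FPKM or less.

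Some other interferon-induced genes were called higher than WT in each mutant line. The lower calls in the CBE lines were of 2 genes that needed their WT libraries to pass the filter. Of 15 genes 10 were measured and 6 were called by the F-test, where 27.6% of all genes were called. Set against WT, the CBE lines jointly and each of them singly had 3 higher and 2 lower, and Eµ-/- had 3 higher and 3 lower; 10.5 to 12.5% of all genes were called higher and 8.19 to 10.4% lower in these comparisons. Iigp1 passed the filter only through its WT libraries, so a call for it against WT was bound to be lower in the mutants. Without it 5 of 9 were called by the F-test, with 3 higher and 1 lower in each CBE comparison and 3 and 2 in Eµ-/-. Oas1a also needed its WT libraries to pass, since among the mutants only Eµ-/- replicate 1 reached 1 FPKM. It is the lower call left in each CBE comparison and 1 of the 2 left in Eµ-/-, so these lower calls are a description. Gbp2, a guanylate-binding protein gene, had 32.6 and 31.2 FPKM in CBE-/- (1), 12.9 and 14.2 in CBE-/- (2), 10.2 and 12.0 in Eµ-/-, and 6.01 and 5.30 FPKM in WT. CBE-/- (1) stood far above the rest, and the log2 differences from WT were 2.31, 1.13 and 0.86 (adjusted p = 3.79e-05, 0.000763 and 0.00296). Gbp3 had 77.1 and 74.3 FPKM in CBE-/- (1), 41.8 and 41.0 in CBE-/- (2), 54.8 and 51.7 in Eµ-/-, and 34.0 and 29.2 FPKM in WT, also highest in CBE-/- (1). Its call in CBE-/- (2) against WT (0.38, adjusted p = 0.0405) was lost without any library of WT, CBE-/- (1) or CBE-/- (2) (adjusted p = 0.0545 to 0.276). Igtp, an immunity-related GTPase gene, was higher than WT by 1.40 on the log2 scale in CBE-/- (1) and by 0.61 in CBE-/- (2) (adjusted p = 0.000526 and 0.0177), and the CBE-/- (2) call was lost without WT replicate 2 or either CBE-/- (2) library (adjusted p = 0.0952 to 0.134).

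Iigp1, another immunity-related GTPase gene, had 0.0726 and 0.0412 FPKM in CBE-/- (1), 0.0585 and 0.0657 in CBE-/- (2), 0.0184 and 0.0194 in Eµ-/-, and 2.06 and 1.73 FPKM in WT. Oas1a, of the 2',5'-oligoadenylate synthetases, had 0.0471 and 0.0390 FPKM in CBE-/- (1), 0.0264 and 0.0631 in CBE-/- (2), 1.31 and 0.918 in Eµ-/-, and 3.15 and 2.81 FPKM in WT. Both were lower in every mutant line, Oas1a by log2 differences of -1.93, -1.93 and -0.92, and Iigp1 by -1.45 to -1.51, given as a description. Bst2, the gene of tetherin, was higher than WT in Eµ-/- by 1.05 (adjusted p = 0.00996), a call that needed both WT libraries (adjusted p = 0.0675 without replicate 1 and 0.0683 without replicate 2). Interferon-induced genes outside the pathway reached a log2 difference of 2.31 (Gbp2), against -0.42 to 0.41 for the 10 members in single mutant lines against WT. The lower end of their range, -1.93, is Oas1a, which needed its WT libraries to pass the filter, and is not set against the members.

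**Figure D5:**
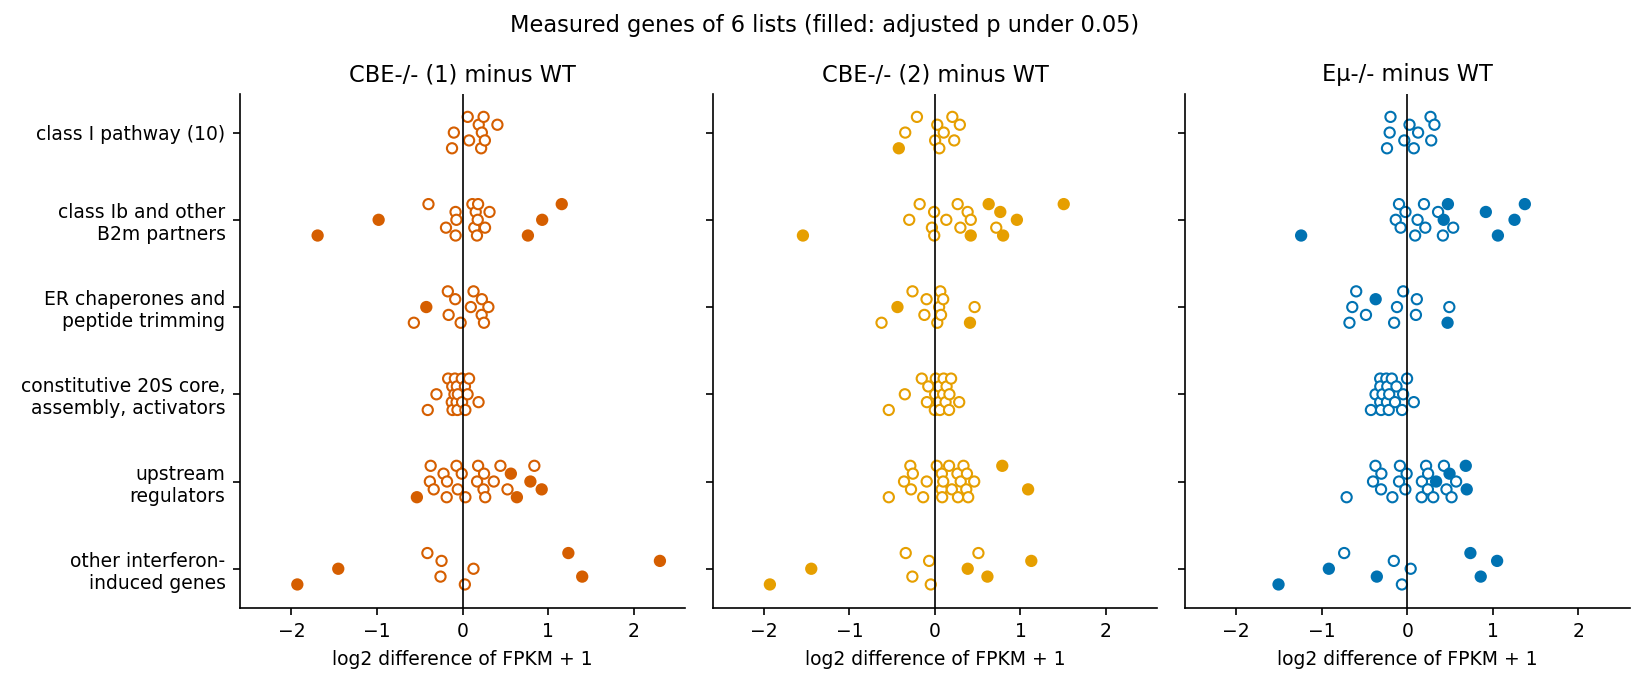
Log2 differences of FPKM + 1 from WT for the measured genes of the 10 members and 5 related lists in CBE-/- (1), CBE-/- (2) and Eµ-/-; each point is a gene, filled at an adjusted p under 0.05. The members lie between -0.42 and 0.41 with 1 filled point, and the partners of B2m and the interferon-induced genes reach from -1.93 to 2.31. The point at -1.93 is Oas1a, which needed its WT libraries to pass the filter.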

How the data were processed

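Poly(A) RNA was sequenced as single 75 bp reads after stranded TruSeq library preparation, per the labels' protocols. The deposited values are FPKM computed by the authors, with intervals and a status per gene, per the file headers. TopHat, Cufflinks and the mm9 build are named in the submitters' processing notes, with no version, setting or strand option stated. FPKM of rows with the same symbol were summed (277 symbols), and 21 symbols not marked OK in every library were dropped. Depth was not stated per library. The intervals, taken as 2 SD on each side, implied 31.3 to 49.5 M reads and a half-width of 0.590 to 4.53% for B2m to Tap1, which covers counting error only.

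In mm9, as the files give it, the members lie on chromosome 17 (Tapbp 34056422 to 34066235, H2-K1 34132956 to 34137278, Psmb9 34319043 to 34324275, Tap1 34324500 to 34334170, Psmb8 34335139 to 34338399, Tap2 34341423 to 34353266, H2-D1 35400038 to 35404442), chromosome 2 (B2m 121973422 to 121978818) and chromosome 8 (Nlrc5 96996662 to 97051172, Psmb10 108459627 to 108462292).

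All 8 libraries entered 1 limma 3.58.1 fit (R 4.3.3) on log2(FPKM + 1), a scale that understates changes of low genes, with a mean-variance trend, a spread shared by the lines, 4 residual and 2.65 prior degrees of freedom, and Benjamini-Hochberg adjustment over 10479 genes (threshold 0.05). Differences between replicate numbers correlated in all 6 pairs of lines (r = 0.28 to 0.50), so the numbers were taken to pair the libraries and the fit with a replicate block is given where it changes a call. Other settings tried were a pseudocount of 0.1 or 5, the filter dropped or set to a mean of 5 FPKM, quantile, TPM or median-of-ratios scaling, no trend, a robust prior, only the libraries compared, the block, the highest row per symbol, and each library left out, with a line left with 1 library assumed to vary like the others. Members and lists were chosen with earlier results of these data known. Always named were the 10 members and Psmb5, Psmb6, Psmb7, Psme1, Psme2, Irf1, Rfx5, Ciita, Calr and Erap1, and per list up to 6 genes called by the F-test; other values named were chosen after they were seen. One gene of the regulator list is not reported here, and the list's counts leave it out. Promoter motifs were searched on both strands of RefSeq windows, and shared windows of 75 bases in GENCODE vM21 transcripts, neither on the mm9 build.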

Additional observations from a re-analysis of the deposited data

Results flagged for a closer look

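Both CBE lines carry the same genotype label, and 7 of the named genes outside the 10 members differed between them in a direct test (limma, log2 difference of CBE-/- (2) minus CBE-/- (1)). Over all genes 10.2% were called in this comparison. The genes that passed had been named because the F-test over the same lines called them, so their number is a description. Cd1d1 and Cd1d2 share sequence and are not separate evidence. Cd1d1 (0.64, adjusted p = 0.00796), Cd1d2 (0.65, adjusted p = 0.00611) and Irf2 (0.80, adjusted p = 0.0180) were higher in CBE-/- (2). Hfe (-0.56, adjusted p = 0.0131), Gbp2 (-1.18, adjusted p = 0.00137), Gbp3 (-0.85, adjusted p = 0.00288) and Igtp (-0.78, adjusted p = 0.0116) were lower in it. The call of Gbp2 held with any single library left out. The others were lost without 1 or more libraries of a CBE line: Gbp3 without CBE-/- (2) replicate 2 (adjusted p = 0.0507), Cd1d1 and Cd1d2 without either CBE-/- (2) library (0.0514 to 0.109), and Hfe, Igtp and Irf2 without those or CBE-/- (1) replicate 1 (0.0635 to 0.149). Among the members, Psmb9 was nearest to a call in this comparison (-0.47, adjusted p = 0.0568).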

How the results depend on the processing

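Of 1400 pairwise results for single members under 20 alternatives 1328 kept their direction and side of the threshold, 21 came to pass it, 13 no longer passed it, 38 turned sign while passing under neither setting, and 0 reversed while past it; of 190 F-test results 186 kept their side and 4 came to pass. Under the replicate block the number of members called was 1 for any difference among the lines, 2 for the CBE lines against WT, 1 for CBE-/- (1), 2 for CBE-/- (2) and 1 for CBE-/- (2) against CBE-/- (1), and the block changed no other member call. In that order the block called 4746, 3460, 3142, 3013 and 1736 of the 10479 genes tested, beside 2897, 2339, 2033, 1960 and 1069 in the fit reported. Quantile normalization gave 1 (B2m) for the CBE lines jointly and 1 for CBE-/- (1), a fit of only the libraries compared gave 2 (H2-K1 and Tap2) for the CBE lines jointly, and TPM scaling gave 1 for CBE-/- (2) against CBE-/- (1). Calls over all genes in these fits numbered 2444, 2171, 2911 and 1178 in that order. The 1 call of CBE-/- (2) against WT became 0 with a pseudocount of 5, without the filter, with a mean of 5 FPKM as the filter, with TPM or quantile scaling, and with no trend or a robust prior. With libraries left out singly the counts ran from 0 to 2 for any difference, 0 to 2 for the CBE lines, 0 to 1 for CBE-/- (1), 0 to 1 for CBE-/- (2), 0 to 3 for Eµ-/- against WT, and 0 to 1 for it against CBE-/- (1) and against CBE-/- (2). The number of all genes called also changed with the library left out. The cause of these changes was not tested. Over all genes the F-test called 1440 to 4746 genes, beside 2897 in the fit reported, and quantile normalization took the higher share of calls for CBE-/- (2) to 45.8%, beside 56.2%. The members' counting intervals had half-widths of at most 4.53%, and with 2 libraries per line, changes under 2-fold can go uncalled.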
